A study of Mus musculus with 6 samples.

Results

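The genes of the tricarboxylic acid (TCA) cycle, of the steps that feed and drain citrate, and of mitochondrial fatty-acid oxidation were followed in the anterior prostate (AP) of mice with over-activated Notch1 signaling. The set was listed by gene symbol with no filter on its values, although earlier results of these data were known when it was chosen. Its 39 genes were all found among the 55076 rows of the expression tables. Of these genes, 24 encode TCA cycle, pyruvate, isocitrate, malate, glutamate and aspartate enzymes, and 15 encode enzymes and electron carriers of beta-oxidation.

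RNA-seq was run on total RNA of the whole AP from 3 OEx and 3 Ctrl male mice at 20 weeks of age. OEx mice carried Pbsn-Cre with a single Rosa26 N1ICD allele, which switches on the Notch1 intracellular domain where Cre is made. Ctrl mice carried the same Rosa26 N1ICD allele without Cre and are given as wild type in the labels. Pbsn-Cre is driven by a promoter of the prostatic epithelium, whereas the RNA came from the whole lobe after its secretion had been cleaned out, so stroma, vessels and immune cells were measured together with the epithelium.

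Acetyl-CoA from pyruvate and from fatty acids condenses with oxaloacetate to citrate, and the TCA cycle oxidises citrate to reducing equivalents for the respiratory chain. Beta-oxidation shortens acyl chains in mitochondria, and its acyl-CoA dehydrogenases pass their electrons to the electron transfer flavoprotein (ETF) and on to the quinone pool. The prostate is known for building up and secreting citrate, with limited oxidation of citrate in its secretory epithelium, and aspartate is known as a source of the oxaloacetate used for it.

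The targeted gene separated the groups, with Notch1 at 41.9, 47.6 and 78.9 FPKM in OEx mice and 5.18, 5.55 and 3.34 FPKM in Ctrl mice. FPKM is a read count divided by exon length and by a factor for the library. Between 14762182 and 18650962 reads per mouse fell on annotated genes. Ctrl mouse 3 stood apart with a summed 16128 FPKM of 8 seminal vesicle genes, against at most 4.36 in the other mice, and with 2336 FPKM of 10 smooth muscle and fibroblast markers against 1115 and 1095 in the other Ctrl mice. The same stromal sum was 650.2, 655 and 374 FPKM in OEx mice. It was carried by smooth muscle genes such as Acta2, whereas the collagen gene Col3a1 was at 83.9, 84.1 and 3.67 FPKM in OEx and 8.21, 7.95 and 14.7 FPKM in Ctrl mice, and Col1a1 at 75.4, 83.7 and 6.04 against 11.4, 11.5 and 18.9 FPKM, so OEx mice 1 and 2 were above every Ctrl mouse and OEx mouse 3 below. The 8 immune markers summed to 33.9, 34.2 and 8.25 FPKM in OEx mice and to 8.56, 8.4 and 15.9 FPKM in Ctrl mice. Luminal markers were present in every mouse, and their sum ran from 3340.4 to 6423 FPKM in OEx and from 17333 to 21139.6 in Ctrl mice, with Pbsn (Probasin) at 1795 to 4497 and 14220.3 to 18407 FPKM. That sum was mostly Pbsn, and 2 of the 7 luminal markers went the other way: every OEx mouse lay above every Ctrl mouse for Epcam (309.6 to 491 against 214 to 297 FPKM, FDR 0.117) and Cdh1 (127 to 131 against 64.2 to 93.6 FPKM, FDR 0.0101). All 4 basal markers were lower in OEx mice and summed to 6.79 to 15.9 FPKM against 212 to 249. The part of these differences in cell content in the results that follow was not tested, and in RNA of a whole lobe fewer cells of a type and less RNA per cell cannot be told apart.

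A gene was called when it passed a Benjamini-Hochberg FDR of 0.05 over the 12833 rows tested with limma and changed more than 2-fold on the log2(FPKM + 1) scale. Of the 24 TCA cycle genes, 4 were called lower (16.7%) and 0 higher, whereas 15.7% of all rows tested were called lower and 12.9% were called higher, so the share of lower calls was near the background. Of the 15 beta-oxidation genes, 4 were called lower (26.7%) and 1 higher (6.67%). At an FDR under 0.05 with no fold criterion, 12 TCA cycle genes were lower and 5 higher, and 9 beta-oxidation genes were lower and 2 higher, against a background of 36.5% lower and 30.7% higher. In 14 TCA cycle genes every OEx mouse lay below every Ctrl mouse and in 5 every OEx mouse lay above, and in beta-oxidation these counts were 8 and 2, with 38.9% and 33.4% of all rows as the background. The 8 called lower were Idh2, Mdh1, Mdh2, Got1, Cpt2, Acadl, Acads and Etfb, and the gene called higher was Etfa.

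The direction of the set as a whole depended on the scaling between mice. The deposited values differed from median-of-ratios scaling of the reads by at most 0.358%, and on that scale the median log2 fold change was -0.22 for the TCA cycle genes, -0.64 for the beta-oxidation genes and -0.078 for all rows tested. Summed FPKM over all rows was 253965 to 272224 in OEx and 467138 to 529972 in Ctrl mice. When every mouse was scaled to the same FPKM total, the median of all rows moved to 0.70 and those of the TCA cycle and beta-oxidation genes to 0.61 and 0.18, which turned both signs. With equal totals 1 TCA cycle gene was called lower and 6 higher, and 0 beta-oxidation genes lower and 3 higher, against 3.68% and 36.3% of all rows. Taken from the median of all rows, the TCA cycle genes lay at -0.14 as deposited and -0.097 with equal totals, and the beta-oxidation genes at -0.56 and -0.52. The summed FPKM of the 24 TCA cycle genes was 529.7, 516 and 533 in OEx and 818, 811 and 733 in Ctrl mice, yet as a share of all FPKM it was 0.196% to 0.207% in OEx and 0.138% to 0.175% in Ctrl mice. For beta-oxidation the sum was 271, 267 and 322 against 408, 398 and 374 FPKM, and the share was 0.105% to 0.118% against 0.0705% to 0.0873%. Neither measure overlapped between groups, and each reached the smallest exact two-sided permutation p that 3 against 3 mice allow (p = 0.1). All 8 genes called lower stayed below 0 and Etfa stayed above 0 under each of the 3 other scalings tried. A call needed a change beyond 1 log2 unit, more than these scalings moved the median of all rows, so their signs could hardly turn. Of these 8, 1 (Got1) was still called lower with equal totals. With totals that left out the 20 most abundant rows 2 were, and with upper-quartile scaling 6 were. With equal totals 16 of the 27 members with a negative change turned positive.

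**Figure D1:**
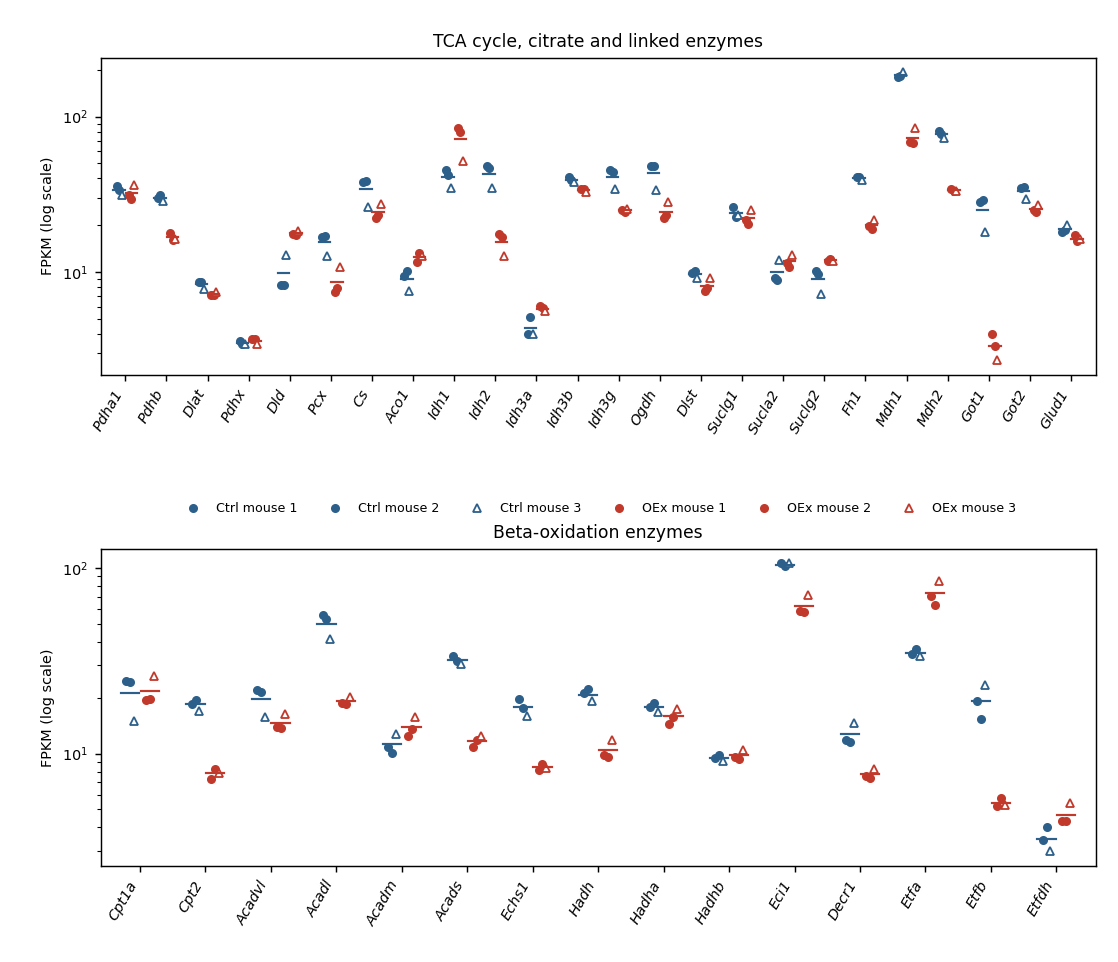
FPKM on a log axis for each of the 39 genes in 3 Ctrl mice (blue) and 3 OEx mice (red), with mouse 3 of each group as an open triangle and the group mean as a line. Mdh1 stands highest in Ctrl mice, at 179.5 to 193 FPKM, and Got1 shows the widest separation, at 2.71 to 3.99 FPKM in OEx and 18.2 to 29.1 FPKM in Ctrl mice.

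Levels per exon length put Mdh1 at the top of the 39 genes in each Ctrl mouse. It was followed there by Eci1 (mean 104 FPKM) and Mdh2 (76.9 FPKM). In OEx mice Mdh1, Etfa and Idh1 had means of 73.3, 73.1 and 71.8 FPKM with overlapping mice, and their order cannot be told. Got1 went from rank 17 of 39 in Ctrl mice to the lowest of all in OEx mice, Etfb from rank 22 to rank 36, Etfa from rank 11 to rank 2, and Dld from rank 31 to rank 16. Within a group the highest mouse exceeded the lowest by a median of 1.15-fold over the 39 genes in OEx and 1.24-fold in Ctrl mice. Ctrl mouse 3 was the lowest Ctrl mouse for 30 of the 39 genes and OEx mouse 3 the highest OEx mouse for 25.

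Pyruvate enters the cycle through the pyruvate dehydrogenase complex, whose E1 enzyme pairs an alpha chain (Pdha1) with a beta chain (Pdhb). Pdhb stood at 17.7, 16.1 and 16.3 FPKM in OEx and 30.1, 31.2 and 28.6 FPKM in Ctrl mice. Every OEx mouse was below every Ctrl mouse (log2 fold change -0.81, SE 0.0798, FDR 0.000202), short of the 2-fold criterion. Pdha1 stood at 31.1, 29.5 and 36.3 FPKM in OEx and 35.6, 33.9 and 31.3 FPKM in Ctrl mice, and the groups overlapped (log2 fold change -0.058, FDR 0.645). Dlat and Pdhx, for the E2 core and its E3-binding protein, had changes of -0.18 and 0.034 and did not pass. Dld, the E3 chain shared with the 2-oxoglutarate dehydrogenase complex, was at 17.5, 17.3 and 18.4 FPKM in OEx and 8.31, 8.3 and 12.8 FPKM in Ctrl mice. All OEx mice were above all Ctrl mice (log2 fold change 0.82, SE 0.164, FDR 0.00431), and without Ctrl mouse 3, the highest of its group, the change was 1.01 and Dld was called higher, whereas after removal of the trend with GC content and exon length it was 0.25 (FDR 0.183). Pcx, which makes oxaloacetate from pyruvate, was lower at 7.47, 7.86 and 10.7 against 16.9, 17.0 and 12.6 FPKM (log2 fold change -0.77, FDR 0.00671). Its groups did not overlap, although mouse 3 of each group lay closest to the other group.

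Citrate synthase (Cs) makes citrate from acetyl-CoA and oxaloacetate. Cs was at 22.2, 23.2 and 27.2 FPKM in OEx and 37.7, 38.5 and 26.1 FPKM in Ctrl mice. Ctrl mouse 3 fell inside the OEx range, and the change of -0.46 was at an FDR of 0.0463. Aco1, the cytosolic aconitase, was at 11.6, 13.2 and 12.7 FPKM in OEx mice and at most 10.2 FPKM in Ctrl mice (log2 fold change 0.43, FDR 0.0184).

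The NADP-dependent isocitrate dehydrogenases differed in direction. Cytosolic Idh1 stood at 85.0, 79.0 and 51.4 FPKM in OEx and 45.3, 42.3 and 34.8 FPKM in Ctrl mice. The OEx mice were all higher, with OEx mouse 3 closest to Ctrl (log2 fold change 0.78, SE 0.206, FDR 0.0143), below the 2-fold criterion. Mitochondrial Idh2 stood at 17.6, 16.7 and 12.6 FPKM in OEx and 47.8, 46.5 and 34.8 FPKM in Ctrl mice. It fell 2.75-fold with no overlap as deposited (log2 fold change -1.40, SE 0.171, FDR 0.000467), and with equal FPKM totals it was at -0.53 (FDR 0.0647) and not called. The sum of both genes was 103, 95.7 and 64 FPKM in OEx and 93.1, 88.8 and 69.6 FPKM in Ctrl mice, so that summed FPKM overlapped while its make-up did not. The NAD-dependent enzyme of the cycle has the catalytic subunit Idh3a and the subunits Idh3b and Idh3g. Idh3a was higher (log2 fold change 0.35, FDR 0.0268) at 5.59 to 6.01 against 3.98 to 5.12 FPKM, Idh3b was lower by a small amount (-0.21, FDR 0.0381), and Idh3g was lower at 24.2 to 25.6 against 34.0 to 45.0 FPKM (-0.68, FDR 0.00243). None of these 3 passed the fold criterion.

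Among the 39 genes, none of those for the later steps before malate was called as deposited. Ogdh, the E1 of the 2-oxoglutarate dehydrogenase complex, was at 22.1, 23.1 and 28.2 FPKM in OEx and 48.4, 48.4 and 33.7 FPKM in Ctrl mice (log2 fold change -0.79, FDR 0.00588), while its E2 Dlst changed by -0.23 and did not pass. Of the succinyl-CoA ligase genes, Suclg2 of the GTP-forming enzyme was higher by 0.37 (FDR 0.0408), and Sucla2 of the ATP-forming enzyme and the shared alpha subunit Suclg1 overlapped between groups at 0.21 and -0.10. Fumarase (Fh1) was at 19.7, 19.0 and 21.6 FPKM in OEx and 40.7, 40.8 and 38.9 FPKM in Ctrl mice. The groups were wide apart, yet the change of -0.96 (SE 0.0811, FDR 0.000112) missed the fold criterion.

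The malate dehydrogenases fell in both compartments as deposited, and with equal FPKM totals both stayed below 0 (-0.43 for Mdh1 and -0.28 for Mdh2) without being called. Mitochondrial Mdh2, which closes the cycle, was at 34.3, 33.4 and 33.4 FPKM in OEx and 80.3, 77.2 and 73.1 FPKM in Ctrl mice (log2 fold change -1.17, SE 0.0751, FDR 4.83e-05). Cytosolic Mdh1, of the malate-aspartate shuttle, was at 68.6, 67.6 and 83.8 against 179.5, 182 and 193 FPKM (log2 fold change -1.33, SE 0.108, FDR 9.91e-05). Neither gene overlapped between groups.

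Got1 showed the steepest fall among the 39 genes as deposited. It encodes the cytosolic aspartate aminotransferase, which with Mdh1 forms the cytosolic side of the malate-aspartate shuttle. Got1 was at 3.99, 3.36 and 2.71 FPKM in OEx and 28.1, 29.1 and 18.2 FPKM in Ctrl mice, with 124 to 957 reads behind each value. The lowest Ctrl mouse was above every OEx mouse, and the mean was 7.5-fold lower in OEx mice (log2 fold change -2.57, SE 0.203, FDR 8.99e-05). Its mitochondrial counterpart Got2 was at 25.2, 24.2 and 27.1 against 34.5, 35.3 and 29.3 FPKM (log2 fold change -0.36, FDR 0.0178). Glud1, the glutamate dehydrogenase, changed by -0.20 and did not pass.

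**Figure D2:**
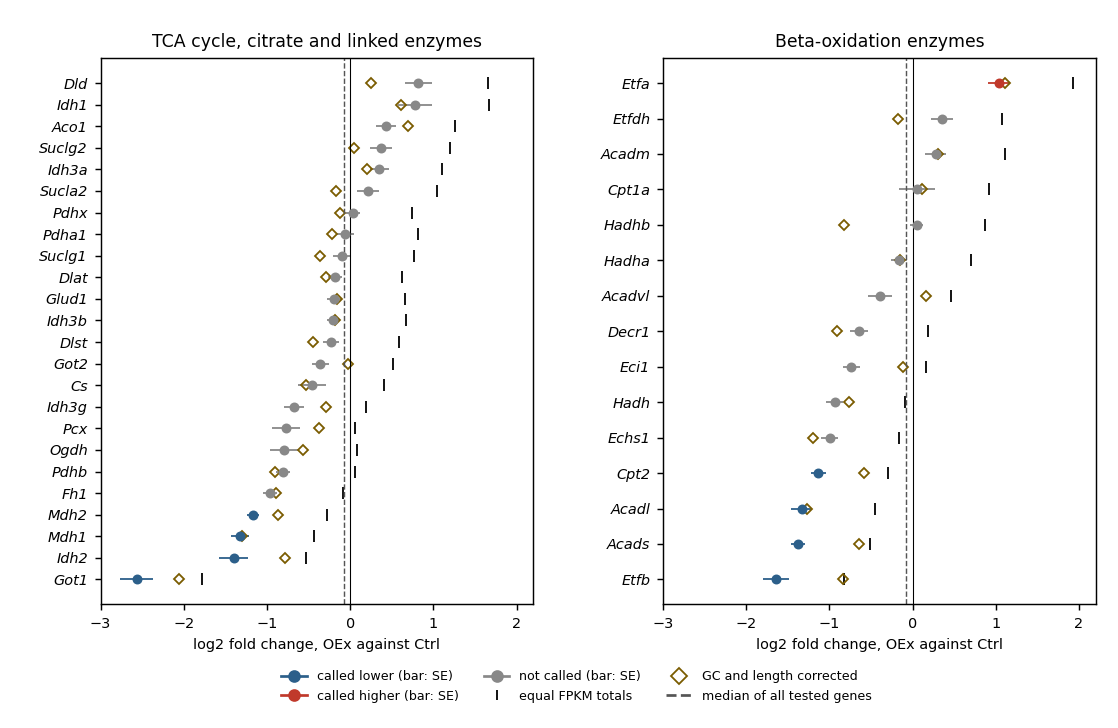
Log2 fold change of OEx against Ctrl mice on the log2(FPKM + 1) scale for the 39 genes, with the SE as a bar, for 3 mice a group. Got1 lies lowest at -2.57 and Etfa highest at 1.04. Black ticks give the change with equal FPKM totals, where 16 of the 27 negative changes turn positive, and open diamonds the change after removal of the trend with GC content and exon length, where Hadhb moves from 0.048 to -0.83.

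Long acyl chains enter mitochondria through the carnitine palmitoyltransferases. Cpt2, on the inner membrane, was at 7.32, 8.28 and 7.88 FPKM in OEx and 18.6, 19.5 and 16.9 FPKM in Ctrl mice. It fell 2.34-fold with no overlap as deposited (log2 fold change -1.13, SE 0.0908, FDR 9.51e-05), and with equal FPKM totals it was at -0.30 (FDR 0.0674) and not called. Cpt1a, the regulated step on the outer membrane, was at 19.5, 19.7 and 26.2 against 24.6, 24.4 and 14.9 FPKM. The groups overlapped, with mouse 3 of OEx the highest and mouse 3 of Ctrl the lowest of the 6 mice, and the change of 0.050 (FDR 0.849) became -0.31 without these 2 mice.

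The acyl-CoA dehydrogenases differ in the chain length they take, and their changes ran from -1.37 to 0.28. Acadl, for long chains, was at 18.8, 18.4 and 20.3 FPKM in OEx and 55.6, 53.0 and 41.5 FPKM in Ctrl mice (log2 fold change -1.33, SE 0.125, FDR 0.000165). Acads, for short chains, was at 10.8, 11.9 and 12.4 against 33.5, 31.7 and 30.4 FPKM (log2 fold change -1.37, SE 0.0864, FDR 4.56e-05). Both fell with no overlap as deposited, and with equal FPKM totals they were at -0.46 (Acadl) and -0.52 (Acads) and not called. Acadm, for medium chains, was at 12.5 to 15.7 FPKM in OEx and 10.1 to 12.8 FPKM in Ctrl mice, and the groups overlapped (0.28, FDR 0.086). Acadvl, for very long chains, was at 13.8 to 16.3 against 15.8 to 21.9 FPKM and overlapped as well (-0.39, FDR 0.0491). Of the 2686 exonic bases of Acadvl, 1151 are shared with Dvl2 on the other strand, and the sources used here do not state whether reads were counted by strand.

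The following steps hydrate, oxidise again and cleave the chain. Echs1, the short-chain enoyl-CoA hydratase, was at 8.12, 8.77 and 8.38 FPKM in OEx and 19.8, 17.7 and 16.0 FPKM in Ctrl mice (log2 fold change -0.996, SE 0.099, FDR 0.000204). Hadh, the 3-hydroxyacyl-CoA dehydrogenase, was at 9.82, 9.59 and 11.8 against 21.1, 22.2 and 19.2 FPKM (log2 fold change -0.94, FDR 0.000361). Both were separated between groups and lay just short of the fold criterion, and both passed it with limma-voom on the recovered reads (-1.08 for Echs1). The trifunctional protein behaved otherwise, with Hadha at 14.4 to 17.4 against 16.8 to 18.8 FPKM (-0.16, FDR 0.182) and Hadhb at 9.4 to 10.4 against 9.11 to 9.83 FPKM (0.048, FDR 0.626), and both overlapped. For unsaturated chains, Eci1 was at 57.7 to 71.2 against 102 to 106 FPKM (-0.74, FDR 0.000881, and -0.11 with FDR 0.414 after removal of the GC and length trend) and Decr1 at 7.42 to 8.24 against 11.5 to 14.6 FPKM (-0.64, FDR 0.00227). Neither overlapped between groups.

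ETF is a dimer of an alpha chain (Etfa) and a beta chain (Etfb), and the transcripts of the chains changed in opposite directions. Etfa was at 71.0, 62.9 and 85.5 FPKM in OEx and 34.5, 36.7 and 33.4 FPKM in Ctrl mice. It rose 2.1-fold with no overlap (log2 fold change 1.04, SE 0.124, FDR 0.000439), and without OEx mouse 3 the change was 0.92 and below the fold criterion. Etfb was at 5.21, 5.79 and 5.28 FPKM in OEx and 19.2, 15.3 and 23.4 FPKM in Ctrl mice. It fell 3.56-fold with no overlap as deposited (log2 fold change -1.64, SE 0.152, FDR 0.000156), and with equal FPKM totals it was at -0.83 and not called. Each Etfb value rested on 111 to 414 reads, with 111 the lowest read number behind any value of the 39 genes, and 678 of its 1164 exonic bases are shared with Gm45233, which is listed at 0 FPKM in every mouse, or with Mir7051. Etfdh, the oxidoreductase that takes the electrons on from ETF, was at 4.34, 4.35 and 5.39 against 3.4, 4.01 and 2.97 FPKM (0.35, FDR 0.0458), and its groups did not overlap.

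Partner chains and isozymes were also compared as a ratio of FPKM within each mouse, which no scaling between mice can move. Of 10 pairs, 8 had no overlap between groups, each with the smallest exact two-sided permutation p the design allows (p = 0.1, adjusted over the 10 pairs 0.125), so no pair could pass 0.05. Among single rows, all OEx mice lay below all Ctrl mice in 38.9% and above in 33.4%. The share among other pairs of genes was not computed, so the count of 8 cannot be read as particular to these pairs. The ratio of Idh1 to Idh2 was 4.82, 4.72 and 4.07 in OEx and 0.946, 0.91 and 0.998 in Ctrl mice, a 4.76-fold difference. The ratio of Etfa to Etfb was 13.6, 10.9 and 16.2 in OEx and 1.8, 2.4 and 1.43 in Ctrl mice, a 7.31-fold difference. The ratio of Got1 to Got2 was 0.158, 0.139 and 0.0999 in OEx and 0.813, 0.825 and 0.622 in Ctrl mice, a 5.75-fold difference. These 3 ratios were the farthest apart of the 10. The ratio of Mdh1 to Mdh2 was 2.0 to 2.51 in OEx and 2.23 to 2.64 in Ctrl mice and overlapped, as did Sucla2 to Suclg2. The log2 difference was 0.78 for Pdha1 to Pdhb, 0.48 for Idh3b to Idh3g, 1.28 for Cpt1a to Cpt2, 1.04 for Acadvl to Acads and -0.22 for Hadha to Hadhb.

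**Figure D3:**
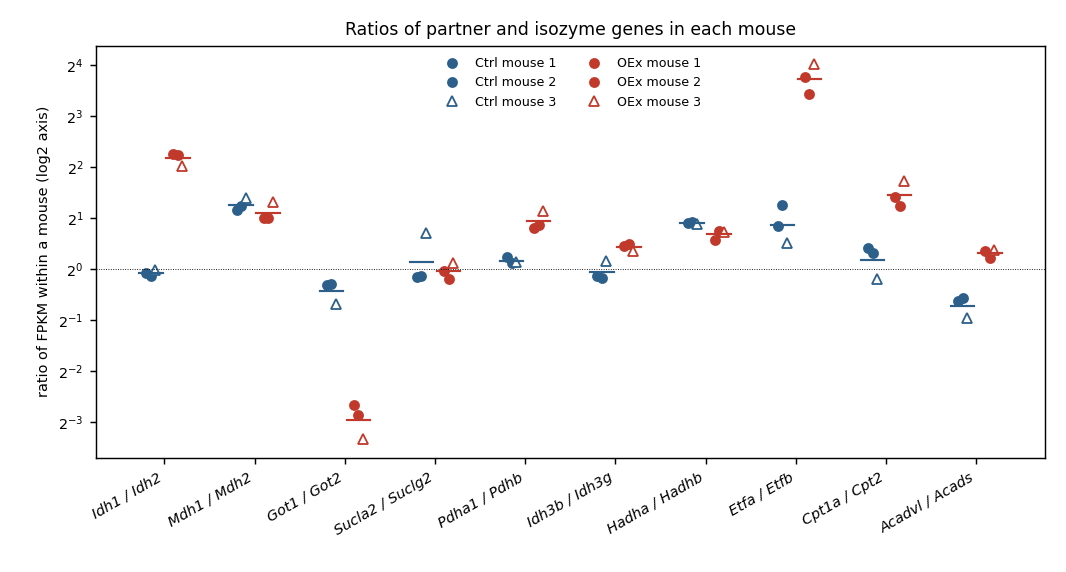
Ratio of the FPKM of 2 genes in each of 3 Ctrl mice (blue) and 3 OEx mice (red) on a log2 axis, with mouse 3 as an open triangle and the geometric mean as a line. Idh1 to Idh2 lies between 0.91 and 0.998 in Ctrl and between 4.07 and 4.82 in OEx mice, while Mdh1 to Mdh2 overlaps.

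Changes across the whole transcriptome followed GC content. The median log2 fold change of all rows tested went from 0.73 in transcripts of at most 42% GC to -0.49 above 58% GC. Over the 39 genes the Pearson correlation of change with GC content was -0.561, and over the 12463 rows with a transcript it was -0.327, both across genes that share the same 6 libraries. The 8 genes called lower had 45.1% to 59.7% GC and the 7 genes higher at an FDR under 0.05 had 40.6% to 52.1% GC. With the trend of GC content and exon length removed, Mdh1, Got1, Acadl and Echs1 were called lower and Etfa higher, with 9.93% of all rows called lower and 11.1% called higher. Idh2 then changed by -0.78, Mdh2 by -0.87, Cpt2 by -0.59, Acads by -0.65 and Etfb by -0.84, all below 0 and short of the fold criterion. Of the 28 members under an FDR of 0.05, 9 were no longer under it (Dld, Idh3a, Idh3g, Suclg2, Pcx, Got2, Acadvl, Eci1 and Etfdh), and Dlst, Suclg1, Dlat and Hadhb came under it with changes below 0. The log2 difference of the Idh1 to Idh2 ratio went from 2.25 to 1.40, that of Etfa to Etfb from 2.87 to 1.95 and that of Got1 to Got2 from -2.52 to -2.03, whereas Hadha to Hadhb turned from -0.22 to 0.68. Whether the GC trend came from the libraries or from the tissue was not tested.

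**Figure D4:**
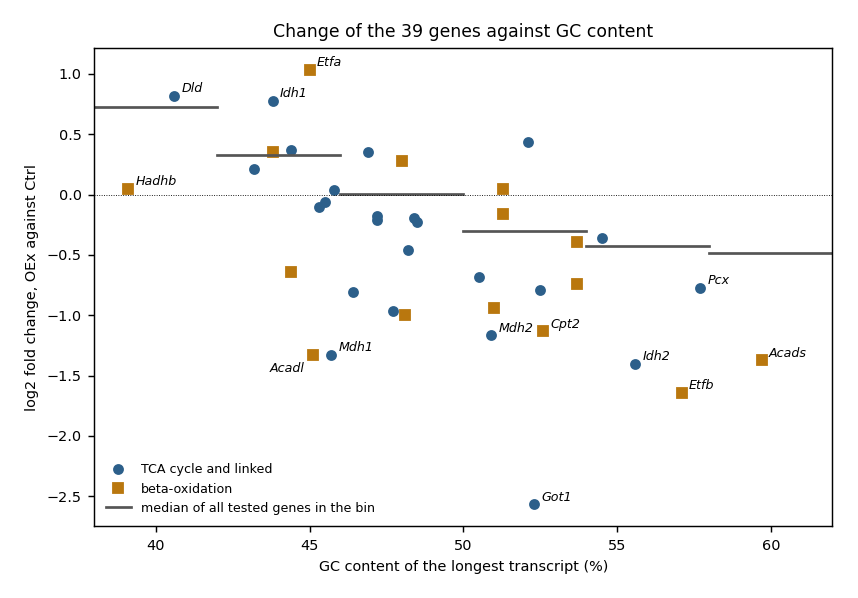
Log2 fold change of OEx against Ctrl mice against the GC content of the longest transcript for the 24 TCA cycle genes (circles) and 15 beta-oxidation genes (squares), with the median of all rows tested in each GC bin as a horizontal line (the outer bins are open-ended). Bin medians go from 0.73 to -0.49. Got1, Mdh1, Acadl and Etfb lie clearly over 1 log2 unit below the median of their bins, and Echs1 lies about 1 unit below.

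Other genes of the cycle and of citrate handling were read from the same fit. Of 36 such genes 32 were tested, with 11 called lower (34.4%) and 2 higher (6.25%) and a median of -0.72, against 15.7% lower and 12.9% higher of all rows. The most changed were Gpt2, a mitochondrial alanine aminotransferase, at 20.3, 20.4 and 28.7 FPKM in OEx against 137, 133 and 92.2 FPKM in Ctrl mice (log2 fold change -2.33), the malic enzyme Me2 (-2.15), the mitochondrial citrate carrier Slc25a1 at 17.4, 20.3 and 21.1 against 73.1, 71.1 and 63.8 FPKM (-1.77), the pyruvate dehydrogenase kinase Pdk3 (-1.66) and the succinate dehydrogenase subunit Sdhb at 23.1, 23.3 and 27.5 against 79.9, 77.3 and 81.3 FPKM (-1.66). None of these overlapped between groups. After removal of the GC and length trend 11 were called lower and 0 higher, against 9.93% and 11.1% of all rows. With equal FPKM totals the median was 0.046, against 0.70 for all rows. There 2 were called lower and 2 higher, against 3.68% and 36.3% of all rows.

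Of 38 other genes of fatty-acid oxidation 32 were tested, with 5 called lower (15.6%), 3 higher (9.38%) and a median of -0.28. Of all rows tested 15.7% were called lower and 12.9% higher, so the share of lower calls was near the background. Those lower were the fatty-acid binding protein Fabp3 (-2.27), malonyl-CoA decarboxylase (Mlycd, -1.53), the peroxisomal bifunctional enzyme Ehhadh (-1.38), the acyl-CoA synthetase Acsl3 (-1.28) and Eci3 (-1.27). Those higher were Acsl4, which activates arachidonic acid, at 26.7, 25.3 and 22.4 FPKM in OEx against 5.32, 5.86 and 6.83 FPKM in Ctrl mice (1.88), the carnitine octanoyltransferase Crot of peroxisomes (1.37) and Acad9 (1.08). Acsl3 and Acsl4 thus differed in direction with no overlap in either. After removal of the GC and length trend 5 were called lower and 1 higher, against 9.93% and 11.1% of all rows. Acsl4 was then at 1.07, and Crot (0.96) and Acad9 (0.89) were no longer called. With equal FPKM totals 1 was called lower and 8 higher of the 32, against 3.68% and 36.3% of all rows. The median was then 0.51, below the 0.70 of all rows. Among the adipocyte markers only Lipe passed the filter on low values, and the 8 markers summed to at most 4.38 FPKM in OEx and at least 9.15 FPKM in Ctrl mice. The 6 skeletal muscle markers, from a tissue rich in both pathways, summed to 26.1 to 33.5 FPKM in OEx mice and to 189, 188 and 433 FPKM in Ctrl mice. That sum was mostly Acta1, at 24.3, 25.7 and 31.2 FPKM in OEx and 185, 184 and 426 FPKM in Ctrl mice. Only 3 of the 6 passed the filter. Of the other 2 that passed, Ckm was at most 3.64 FPKM in any mouse and Mylpf changed by -0.383 (FDR 0.0926). The sum is therefore not a measure of skeletal muscle content, and the part of these markers in the results was not tested.

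Of 19 regulators of oxidative metabolism 14 were tested. Esrra, which encodes the nuclear receptor ERR alpha, was called lower at 21.5, 21.2 and 21.4 FPKM in OEx against 54.3, 54.4 and 49.3 FPKM in Ctrl mice (log2 fold change -1.26, SE 0.077, FDR 4.25e-05). Its groups were far apart and the mice of each were close. The corepressor Nrip1 (1.33) and Gabpa, the DNA-binding chain of GABP (1.01), were called higher as deposited. Esrra stayed below 0 and was no longer called under the 3 other scalings, at -0.38 with equal FPKM totals, -0.62 with totals that left out the 20 most abundant rows and -0.99 with upper-quartile scaling. After removal of the GC and length trend Esrra was called lower (-1.10), and Nrip1 (0.63) and Gabpa (0.35) were no longer called.

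The 250 bases before the start of each gene were searched for letters known from Notch signaling and from mitochondrial genes. Shown are the promoters of the pair Etfa and Etfb, and those of Got1 and Idh2 without their partners Got2 and Idh1. The sequences are from RefSeq (GRCm38.p6), 5′ to 3′ on the strand of the gene, and capitals mark a match. Etfa is on the minus strand (chr9:55512244-55512493), Etfb on the plus strand (chr7:43443822-43444071), Got1 on the minus strand (chr19:43524606-43524855) and Idh2 on the minus strand (chr7:80115351-80115600). In the GENCODE annotation of GRCm38 the genes themselves lie at chr9:55454508-55512243 (Etfa), chr7:43444083-43457800 (Etfb), chr19:43499752-43524605 (Got1) and chr7:80094846-80115392 (Idh2), so the Idh2 start of RefSeq lies inside the span that GENCODE gives.
Etfa: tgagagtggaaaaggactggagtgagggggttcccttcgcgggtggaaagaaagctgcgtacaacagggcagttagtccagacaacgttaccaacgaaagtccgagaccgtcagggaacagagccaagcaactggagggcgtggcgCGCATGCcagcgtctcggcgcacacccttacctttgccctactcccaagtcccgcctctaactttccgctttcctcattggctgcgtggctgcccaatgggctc
Etfb: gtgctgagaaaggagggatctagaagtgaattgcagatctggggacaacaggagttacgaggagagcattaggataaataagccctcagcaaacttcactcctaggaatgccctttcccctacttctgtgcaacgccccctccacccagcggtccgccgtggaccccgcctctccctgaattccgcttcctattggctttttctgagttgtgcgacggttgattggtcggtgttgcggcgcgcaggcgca
Got1: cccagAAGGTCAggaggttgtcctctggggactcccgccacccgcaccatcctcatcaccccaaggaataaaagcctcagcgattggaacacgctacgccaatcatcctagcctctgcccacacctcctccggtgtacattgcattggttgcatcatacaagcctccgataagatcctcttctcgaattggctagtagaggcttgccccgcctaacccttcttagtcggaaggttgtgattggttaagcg
Idh2: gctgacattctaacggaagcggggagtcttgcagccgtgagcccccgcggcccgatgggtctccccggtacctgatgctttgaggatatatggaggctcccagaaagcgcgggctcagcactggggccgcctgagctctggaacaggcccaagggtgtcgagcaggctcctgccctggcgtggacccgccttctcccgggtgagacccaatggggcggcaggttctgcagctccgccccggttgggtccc

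In Etfa the capitals mark the letters of an NRF1 core on the opposite strand, 104 to 98 bases before the start, and in Got1 those of an ERR site, 245 to 239 bases before the start. Etfb and Idh2 held no match. Of the 39 genes, 37 had an entry in the promoter table (not Decr1 or Idh3a), and each motif was searched on both strands. The RBPJ core TGGGAA was found in 8 of the 37 genes, against 24.1% of the 27025 genes of the table and 21.6% of its 32851 promoters. It was in 0 of the 8 genes called lower and in 2 of the 6 genes with an entry that were higher at an FDR under 0.05. The ERR letters AAGGTCA were found in 2 genes (Acadm and Got1), against 4.7% of all genes and 4.08% of all promoters, and the GABP letters CCGGAAG in 3 (Cpt2, Glud1 and Idh3g), against 7.83% and 6.91%. The NRF1 core GCATGCG was found in 6 genes (Acadm, Etfa, Etfdh, Glud1, Ogdh and Pdhb), against 3.43% of all genes and 3.02% of all promoters. Of these 6 genes, Etfa and Etfdh were higher at an FDR under 0.05, Ogdh and Pdhb were lower, and Acadm and Glud1 did not pass.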

How the data were processed

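Whole AP RNA of 3 OEx and 3 Ctrl mice was measured, with 1 expression table per mouse. The authors deposited FPKM values by gene symbol. Their processing notes name CASAVA, HISAT2 2.0.5, StringTie 1.3.3b and featureCounts 1.5.0-p3, without the part each played in these tables. The genome build and the strand setting of the counting are not given in the sources used here. FPKM removes exon length and library size, and leaves GC content and cell content in the values.

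Reads were recovered from the FPKM values and the exon lengths of GENCODE M21 (GRCm38), which placed 53636 rows, and 96.9% to 97.5% of values under 1000 reads came out whole within 0.05 reads. On simulated data, 100% of reads came out exactly. Each member rested on 111 to 7532 reads per mouse, and intervals were not computed from them, since reads without molecular identifiers are not known to be separate molecules. Exons of 9 members overlap another gene.

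The groups were tested in R 4.3.3 by limma 3.58.1 on log2(FPKM + 1). Genotype was the only term, the variance prior followed expression level, and rows averaging under 1 FPKM were left out, which kept 12833. Fold changes on this scale understate those of low genes. On simulated data, 87.5% of 200 changed genes were called and 4 of 12134 unchanged ones. These values hold for the simulated data only, and how often real genes of these mice are missed or wrongly called was not tested. Ratios were tested with an exact two-sided permutation test over the 20 assignments of mice. The labels do not say more of the replicates than that they are separate mice. Plots were drawn with matplotlib 3.10.9, and tables were made in Python 3.11.15 with pandas 2.3.3, scipy 1.17.1 and numpy 2.4.6. The members, the lists and the promoter letters were chosen with earlier results of these data known. All 39 members are named, with the called genes of the largest change, up to 5 in each direction, from each list of other pathway genes and regulators. Some of these genes are not reported here. Alternatives were the pseudocount, the filter, the scaling, limma-voom on the recovered reads, GC content and exon length, a replicate block, and leaving out each mouse. Leaving out mouse 3 of both groups, and GC correction of the ratios, were added after seeing the data.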

Additional observations from a re-analysis of the deposited data

How the results depend on the processing

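With each mouse left out in turn, the TCA cycle genes had 4 to 5 called lower and 0 to 1 higher (Dld, without Ctrl mouse 3), with a median of -0.25 to -0.21. The beta-oxidation genes had 4 to 5 called lower and 0 to 1 higher (Etfa was lost without OEx mouse 3), with a median of -0.70 to -0.54. Pdha1 ran from -0.14 to 0.0027 and turned without OEx mouse 2, and Cpt1a turned to -0.18 without Ctrl mouse 3 and to -0.0833 without OEx mouse 3. Without mouse 3 of both groups 7 TCA cycle genes were called lower, with Fh1, Ogdh and Pcx added, and their median was -0.29. There 6 beta-oxidation genes were called lower and 0 higher, Cpt1a was at -0.31 and Hadhb at -0.0183. Among all rows, more were also called lower and higher than the 2021 and 1653 called with every mouse kept. Deviations from the group mean had a mean correlation of -0.23 between same-numbered mice and 0.0951 between the others. With 3 mice a group these correlations depend on one another, so whether replicate numbers pair the mice cannot be told from them. The fit with the replicate number as a block called 4 TCA cycle genes lower and 0 higher. It called 4 beta-oxidation genes lower and 1 higher, and all these counts were as without the block.

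With equal FPKM totals, 1 TCA cycle gene was called lower and 6 higher (median 0.61), 0 beta-oxidation genes lower and 3 higher (median 0.18), and 489 of all rows lower and 4822 higher. The changes that turned positive were those of Pdha1 (0.82), Suclg1 (0.77), Hadha (0.70), Idh3b (0.67), Glud1 (0.66), Dlat (0.62), Dlst (0.59), Got2 (0.52), Acadvl (0.46), Cs (0.41), Idh3g (0.20), Decr1 (0.18), Eci1 (0.16), Ogdh (0.0856), Pdhb (0.0591) and Pcx (0.0582). When the 20 most abundant rows were left out of the totals, 1 TCA cycle gene was called lower and 3 higher (median 0.38). There 1 beta-oxidation gene was called lower and 1 higher (median -0.0432), and 700 of all rows lower and 3694 higher. The changes that turned positive were then Pdha1 (0.58), Suclg1 (0.53), Hadha (0.46), Idh3b (0.43), Glud1 (0.43), Dlat (0.41), Dlst (0.36), Got2 (0.28), Acadvl (0.23) and Cs (0.17). With upper-quartile scaling 2 TCA cycle genes were called higher (median 0.0425), the beta-oxidation median was -0.39 and 1313 of all rows were called lower, and the positive ones were Pdha1 (0.21), Suclg1 (0.17), Hadha (0.11), Dlat (0.0704), Glud1 (0.0695), Idh3b (0.0615) and Dlst (0.0235).

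With the GC and length trend removed, 2 TCA cycle genes (median -0.29), 2 beta-oxidation genes and 1274 of all rows were called lower, and the signs of Acadvl (0.16), Etfdh (-0.18), Hadhb (-0.83), Pdhx (-0.12) and Sucla2 (-0.18) turned. The same correction with the replicate block gave the same values for these 5 genes, the same counts of 2 and 2 and the same TCA cycle median of -0.29, with 1253 of all rows called lower. Log2 differences of the ratios were then 1.40 (Idh1 to Idh2), -0.43 (Mdh1 to Mdh2), -2.03 (Got1 to Got2), 0.0983 (Idh3b to Idh3g), 0.68 (Hadha to Hadhb), 1.95 (Etfa to Etfb), 0.70 (Cpt1a to Cpt2) and 0.81 (Acadvl to Acads). With a pseudocount of 1 the Got1 to Got2 difference was -2.21. With no fold criterion 12 TCA cycle genes were lower and 5 higher, 9 beta-oxidation genes lower and 2 higher, and 4680 of all rows lower and 3941 higher. With a pseudocount of 5, 1156 of all rows were called lower and 457 higher, 0 beta-oxidation genes were called higher and their median was -0.47. With a mean of at least 5 FPKM 681 of all rows were called higher. The cause of these shifts was not tested.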
